A study of Mus musculus with 6 samples.

Results

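The genes described here are 9 of the JAK, STAT and SOCS genes of the mouse, taken by name from library files that list 39171 gene identifiers. They are the kinase genes Jak1, Jak3 and Tyk2, the transcription factor genes Stat3, Stat5a and Stat5b, and the inhibitor genes Socs1, Socs3 and Cish. Each name matched 1 row of the files. RNA was sequenced from CD4+ T cells of the spleen of premenopausal C57BL/6 mice, isolated with a magnetic kit. The AngII group is 3 mice that received angiotensin II, the peptide hormone that raises blood pressure, at 800 ng/kg/min from an osmotic minipump for 14 days. The Control group is 3 mice labelled untreated. Whether Control mice carried a pump or a vehicle is not stated in the sources used here. All mice were 10 weeks old at the start of the 2 weeks, each gave 1 library, and the labels name no genetic change. The series asks which transcripts of CD4+ T cells bear on the protection from hypertension that comes with premenopausal state.

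Cytokine receptors have no kinase of their own. They carry JAK kinases on their inner side, which phosphorylate the receptor and then STAT proteins, and paired STAT proteins enter the nucleus and switch on genes. In CD4+ T cells, JAK1 with JAK3 serves the receptors of IL-2, IL-7 and other cytokines that share the common gamma chain and act largely through STAT5, whereas IL-6 acts through JAK1 and STAT3. The SOCS proteins and CIS, the product of Cish, are made in response to STAT proteins and damp the signal, so their transcripts are often read as a trace of recent cytokine signalling.

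The stretches of 250 bases before the transcription start of the 3 inhibitor genes are shown because these genes are known targets of STAT proteins. Sequences are from RefSeq, build GRCm38.p6, in the direction of the gene, and capitals mark the STAT motif TTCNNNGAA, whose pattern reads alike on both strands.
Socs3 (chr11:117969367-117969616, minus strand): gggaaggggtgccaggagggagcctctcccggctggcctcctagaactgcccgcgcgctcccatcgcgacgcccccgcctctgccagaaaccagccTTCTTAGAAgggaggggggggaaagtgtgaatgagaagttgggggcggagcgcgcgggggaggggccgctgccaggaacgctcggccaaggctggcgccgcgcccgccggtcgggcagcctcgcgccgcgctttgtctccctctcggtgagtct
Socs1 (chr16:10785537-10785786, minus strand): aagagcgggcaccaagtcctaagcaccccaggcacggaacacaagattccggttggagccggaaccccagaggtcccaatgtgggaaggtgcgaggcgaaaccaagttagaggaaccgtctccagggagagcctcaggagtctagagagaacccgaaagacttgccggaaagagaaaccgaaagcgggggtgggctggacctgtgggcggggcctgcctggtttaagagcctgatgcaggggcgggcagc
Cish (chr9:107296409-107296658, plus strand): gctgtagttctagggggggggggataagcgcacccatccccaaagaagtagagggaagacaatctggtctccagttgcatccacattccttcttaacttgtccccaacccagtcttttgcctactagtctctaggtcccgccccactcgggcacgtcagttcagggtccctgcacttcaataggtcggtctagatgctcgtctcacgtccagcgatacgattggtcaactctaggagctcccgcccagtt

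The motif was found in the Socs3 window, as TTCTTAGAA starting 154 bases before the transcription start, and in no window of the other 8 genes (11 windows in all, since Stat5a and Stat5b have 2 starts each). Of all 32851 windows of this length in the table, 7.02% hold it. Where the letters are missing, nothing follows about binding outside the window or at other sequences.

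The libraries carried the transcripts of CD4+ T cells. Cd4 was at 228.1 ± 12.5 FPKM in AngII and 228.6 ± 25.5 FPKM in Control (SD, n = 3 each), where FPKM is a number of fragments scaled to transcript length and library size, so that genes can be compared. Summed FPKM ran from 613674 to 717286 over the 6 libraries. Transcripts of other spleen cells were present too, and no marker list of theirs was absent as a whole. The 12 macrophage and monocyte markers summed to between 1554 and 3084 FPKM in AngII and between 1257 and 2207 FPKM in Control. The 12 granulocyte markers summed to between 28.1 and 82.3 FPKM in AngII and between 10.9 and 51.3 FPKM in Control, with Ly6g listed at 0 in every AngII library.

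All 9 genes were expressed above 10 FPKM in each of the 6 libraries, and none passed the test between AngII and Control. The test was limma on log2(FPKM + 1), two-sided, over the 11842 genes whose mean reached 1 FPKM. A gene passed when its p, adjusted by Benjamini and Hochberg's method, was under 0.05, and 0.0338% of all genes tested did. At an unadjusted p below 0.05, 1 of the 9 genes was called, Socs3, against 1.76% of all genes tested. That call was lost when the summed FPKM of each library was set equal (Socs3, limma unadjusted p = 0.0765). It was also lost when libraries were scaled to CD4+ T cell markers. Both scalings moved all genes, with a median log2 fold change of 0.058 and 0.060 against -0.004 without scaling. The values of AngII and Control did not overlap for 1 of the 9 genes, again Socs3, against 5.84% of all genes tested. The limma adjusted p was 0.9999 for every one of the 9 genes. In RNA of whole cell preparations, fewer cells of a type and less RNA per cell cannot be told apart.

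**Figure D1:**
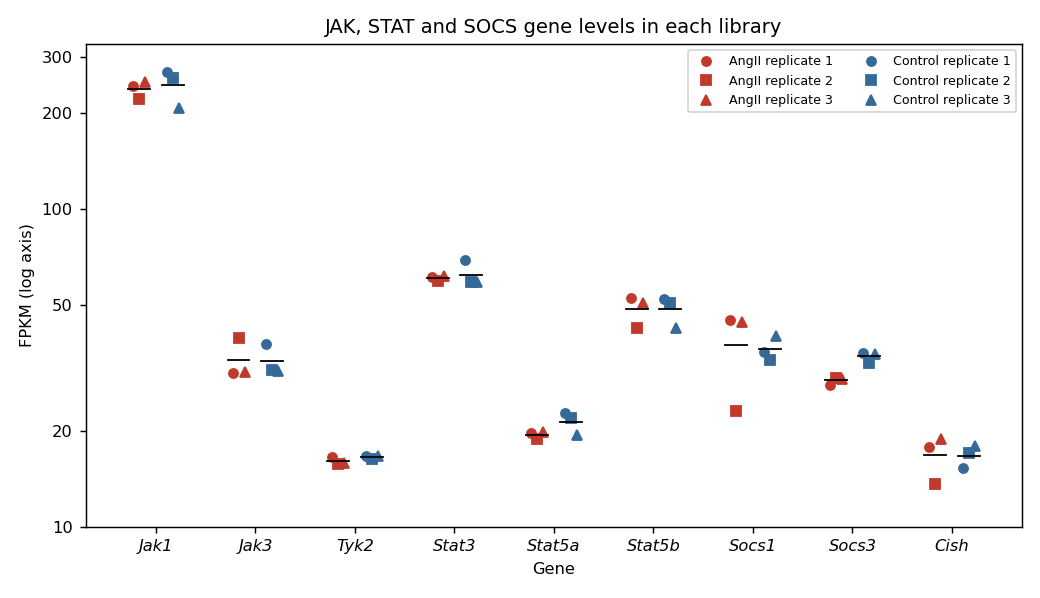
FPKM (log axis) of the 9 genes in each library, AngII in red left of Control in blue, with symbols for the replicate and black bars for the group means of 3. Jak1 lies far above the others, the Socs3 groups do not overlap, and the Socs1 value of AngII replicate 2 (23.2 FPKM) lies below the other 5.

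The order of levels was Jak1, Stat3, Stat5b, Socs1, Jak3, Socs3, Stat5a, Cish and Tyk2. Jak1 had a mean of 241.8 FPKM over the 6 libraries, a level that 2.64% of the genes tested reached. It made up between 44.4% and 49.5% of the summed FPKM of the 9 genes in each library. Stat3 followed with a mean of 61.3 FPKM and Stat5b with 48.3 FPKM, and both steps separated the ranges of the libraries. Socs1 (36.8 FPKM), Jak3 (33.4 FPKM) and Socs3 (31.6 FPKM) overlapped with each other, as did Cish (16.8 FPKM) and Tyk2 (16.3 FPKM) at the low end. The ranges of Stat5b and Socs1 overlapped too, as did those of Stat5a and Cish. Within each of the 6 libraries, though, Stat5b was above Socs1 and Stat5a was above Cish.

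Among the kinases, Jak1, which pairs with most cytokine receptors of T cells, was at 244.1, 221.9 and 250.4 FPKM in AngII replicates 1, 2 and 3, against 268.9, 257.3 and 208.1 FPKM in Control replicates 1, 2 and 3. The lowest value was a Control library and the groups overlapped, with a limma log2 fold change of -0.03 (95% interval -0.30 to 0.25). Jak3, the partner of JAK1 on the common gamma chain, was at 30.6, 39.4 and 30.6 FPKM in AngII and 37.7, 31.2 and 30.8 FPKM in Control, in replicate order. It was high in 1 library of each group, AngII replicate 2 and Control replicate 1, and near 31 FPKM in the other 4. The log2 fold change of Jak3 was 0.01 (95% interval -0.31 to 0.33).

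Tyk2, the kinase of the interferon and IL-12 receptors, was the steadiest of the 9 genes, with a spread within groups of 2.36% of its mean. It was at 16.6, 15.7 and 15.8 FPKM in AngII, against 16.7, 16.3 and 16.7 FPKM in Control. Its limma log2 fold change was -0.04 (95% interval -0.17 to 0.09). An antisense gene, 1700084C06Rik, covers 8.07% of the exonic bases of Tyk2 and had a mean of 3.15 FPKM, and whether reads were counted by strand is not given in the sources used here.

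Among the transcription factors, Stat3, which relays IL-6 and IL-21, was at 60.8, 59.1 and 61.5 FPKM in AngII, against 68.8, 58.7 and 58.7 FPKM in Control. Apart from Control replicate 1, the libraries lay within 3 FPKM of each other, and the log2 fold change was -0.03 (95% interval -0.22 to 0.16). Stat5a and Stat5b are neighbours on chromosome 11 and encode closely related factors of IL-2 and IL-7 signalling, so reads that fit both genes are assigned with less certainty. Stat5a was at 19.8, 18.8 and 19.9 FPKM in AngII, against 22.8, 22.0 and 19.5 FPKM in Control. Its 3 AngII values lay close together, with Control replicate 3 among them, and the log2 fold change was -0.13 (95% interval -0.31 to 0.06; limma unadjusted p = 0.143). The limma unadjusted p of Stat5a was 0.0396 with library weights and 0.0306 without Control replicate 3. Its adjusted p was at least 0.279 under each alternative. Over all genes, 2046 and 413 had an unadjusted p below 0.05 in these 2 fits, against 208 in the main fit. The 3′ ends of Stat5a (chromosome 11, 100859351 to 100885169) and Stat3 (chromosome 11, 100885098 to 100939540) in GENCODE M21 on GRCm38 share 72 exonic bases on opposite strands.

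Stat5b was at 52.3, 42.3 and 50.5 FPKM in AngII, against 52.0, 50.6 and 42.3 FPKM in Control. AngII replicate 2 and Control replicate 3 were low and the other 4 libraries lay near 51 FPKM. The log2 fold change of Stat5b was 0.00 (0.003 before rounding, 95% interval -0.28 to 0.29). Stat5b stood above Stat5a in every library, by a ratio of 2.48 ± 0.209 in AngII and 2.25 ± 0.0692 in Control (SD, n = 3 each; exact permutation test, two-sided, p = 0.3).

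Among the inhibitors, Socs3, which blocks JAK kinases at the IL-6 receptor chain gp130, was the gene whose groups did not overlap. It was at 28.0, 29.5 and 29.1 FPKM in AngII replicates 1, 2 and 3, against 35.3, 32.8 and 34.9 FPKM in Control replicates 1, 2 and 3. Every AngII library thus lay below every Control library, as for 3.48% of all genes tested, and 1.14% of all genes tested had lower values in AngII at an unadjusted p below 0.05. The means were 28.9 ± 0.794 FPKM in AngII and 34.4 ± 1.32 FPKM in Control (SD, n = 3 each), and the ratio of AngII to Control was 0.845 on the scale of FPKM + 1 (95% interval 0.768 to 0.929). The log2 fold change of -0.24 (SE 0.0564) had a limma unadjusted p of 0.00493, rank 22 of 11842, and did not pass the threshold (limma adjusted p = 0.9999, and at least 0.275 under each alternative). In the authors' deposited table, whose 2 conditions are named only by number, Socs3 had p = 0.0463 and q = 0.999918 from the authors' own test, and the other 8 genes had p from 0.58375 to 0.98855. Of the rows tested there, 2.36% had a p below 0.05. The row of Jak3 in the authors' deposited table is joined with Insl3, a gene that overlaps its end.

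Other gene lists also differed between the libraries, and their part in the value of Socs3 was not tested. The 20 immediate early and stress genes, fast-responding genes such as Egr1, summed to 3665, 5313 and 4119 FPKM in AngII, against 5798, 6404 and 3980 FPKM in Control. These sums overlapped between the groups. The 10 CD4+ T cell markers summed to 2306, 2226 and 2414 FPKM in AngII, against 2561, 2496 and 2249 FPKM in Control. Per 1000 FPKM of these markers, Socs3 was at 12.1, 13.2 and 12.1 in AngII and 13.8, 13.2 and 15.5 in Control, so that AngII replicate 2 (13.24) and Control replicate 2 (13.16) overlapped. On that scale the log2 fold change of Socs3 was -0.17 with a limma unadjusted p of 0.0777. The Stat5a groups did not overlap there, with 8.58, 8.46 and 8.24 in AngII and 8.89, 8.82 and 8.65 in Control. The limma log2 fold change of Stat5a was -0.057 (unadjusted p = 0.315, adjusted p = 0.983). The share of all genes whose groups did not overlap on that scale was not computed. This scaling was added after the data were seen.

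Socs1, which blocks JAK kinases after interferon gamma and common gamma chain cytokines, varied most, with a spread within groups of 24.4% of its mean. It was at 44.6, 23.2 and 44.1 FPKM in AngII, against 35.5, 33.4 and 39.9 FPKM in Control. AngII replicate 2 was the lowest of the 6 libraries and the other 2 AngII libraries were the highest. The limma log2 fold change was -0.02 (95% interval -0.65 to 0.62). Without AngII replicate 2 it was 0.29 (limma unadjusted p = 0.0209, adjusted p = 0.632; adjusted p at least 0.302 over the alternatives), and it was also above 0 without Control replicate 3 (0.05) and under several scalings, so no direction can be given for Socs1. Over all genes, 912 had an unadjusted p below 0.05 without AngII replicate 2, against 208 with it. Without AngII replicate 2 and Control replicate 3 together, Socs1 had a limma unadjusted p of 0.00288 and an adjusted p of 0.454. In that fit, 1230 genes had an unadjusted p below 0.05.

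Cish, whose product binds receptors at STAT5 docking sites, was at 17.9, 13.6 and 18.9 FPKM in AngII, against 15.3, 17.1 and 17.9 FPKM in Control. AngII replicate 2 was again the lowest, and the log2 fold change was -0.01 (95% interval -0.33 to 0.32), or 0.13 without that library. Cish and Socs1 had a Pearson correlation of 0.913 over the 6 libraries, given as a description since both rest on AngII replicate 2. All 479 exonic bases of the antisense gene Gm17041 (chromosome 9, 107300380 to 107301838) lie within exons of Cish. Gm17041 was at 12.9, 10.0 and 13.0 FPKM in AngII, against 7.88, 9.76 and 10.7 FPKM in Control, a limma log2 fold change of 0.31 with an unadjusted p of 0.0718 and an adjusted p of 0.9999. The 479 shared bases are 7.46% of the exonic bases of Cish. Reads within these shared bases cannot be assigned to Cish or Gm17041 without strand, while reads of the rest of Cish can.

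**Figure D2:**
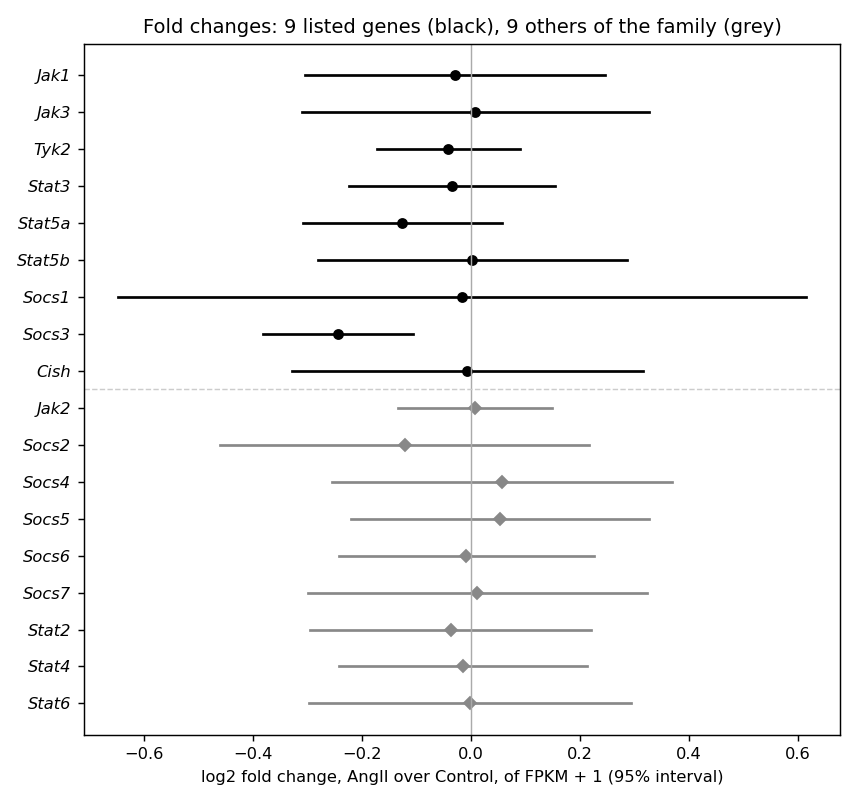
Limma log2 fold change of AngII over Control on the scale of FPKM + 1 (points) with 95% intervals (bars), for the 9 genes in black and 9 other JAK, STAT and SOCS genes in grey. The interval of Socs3 (-0.38 to -0.11) lies below 0, and the other 17 include 0.

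The intervals bound what these 3 against 3 libraries could miss. For the 8 genes other than Socs1, no 95% interval, unadjusted for the number of genes, reached beyond a ratio of 0.768 or 1.25 of AngII to Control. For Socs1 it ran from 0.638 to 1.53. The limma log2 fold change was below 0 for 7 of the 9 genes and above 0 for 2, with a median of -0.03 against -0.004 over all genes tested. For Socs1 and Cish, counted among the 7, the mean FPKM was the other way, at 37.3 FPKM in AngII and 36.3 FPKM in Control for Socs1. With 1 library left out, between 5 and 8 of the 9 were below 0. Higher and lower values within gene lists were counted by the same sign. That split turned to 2 lower and 7 higher when the summed FPKM of each library was set equal or when libraries were scaled to the CD4+ T cell markers, which moved the median of all genes to 0.058 and 0.060.

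Ratios between the genes within a library do not depend on depth, and 8 were compared. The ratio of Socs3 to Stat3, an inhibitor to the factor that induces it, was 0.460, 0.498 and 0.474 in AngII, against 0.513, 0.559 and 0.595 in Control. The groups did not overlap, and the exact permutation test gave p = 0.1, the smallest that 3 against 3 can give (two-sided; adjusted p = 0.8 over the 8 ratios). This ratio holds the same Socs3 values, whose groups did not overlap by themselves, so it is no separate result. The ratio of Socs1 to Socs3 was 1.60, 0.786 and 1.51 in AngII, against 1.01, 1.02 and 1.14 in Control, with p = 0.4 in the exact permutation test. Jak1 exceeded Jak3 by a ratio of 7.27 ± 1.42 in AngII and 7.38 ± 0.779 in Control (SD, n = 3 each). The other 7 ratios overlapped between the groups, with exact permutation p from 0.3 to 1.

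**Figure D3:**
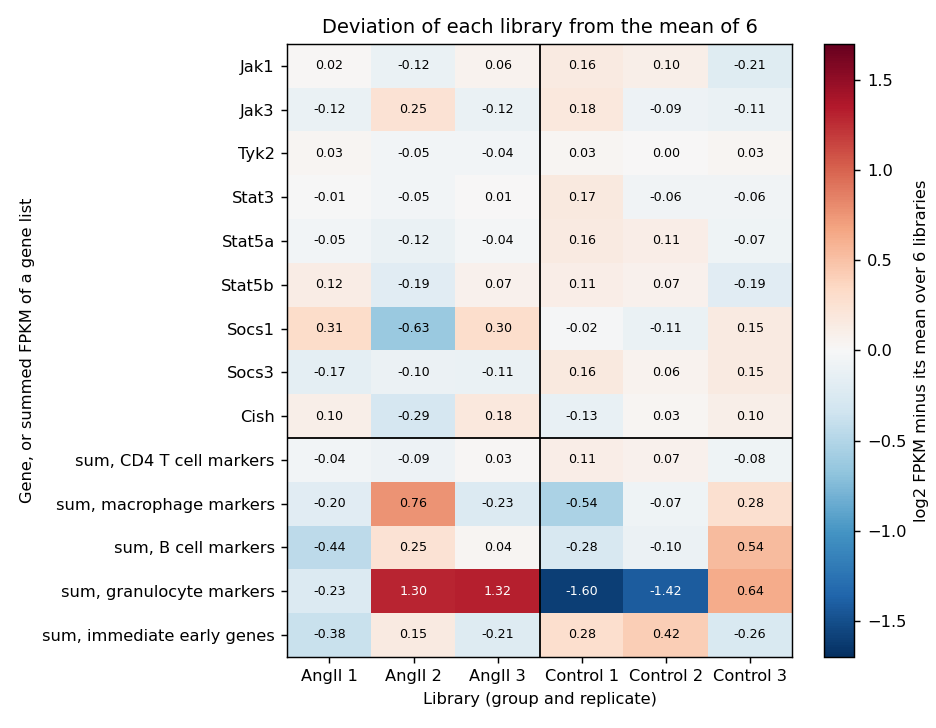
Deviation of each library (columns, AngII left of Control) from the mean of 6, in log2 FPKM, for the 9 genes and for the summed FPKM of 5 gene lists (rows); red is above and blue below the mean. AngII replicate 2 stands out with low Socs1 (-0.63) and high macrophage markers (0.76).

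Levels of several genes followed single libraries rather than the groups. Jak1 and Stat5b were lowest in the same libraries, AngII replicate 2 and Control replicate 3, with a Pearson correlation of 0.909 over the 6 libraries as a description. These 2 libraries had the highest sums of macrophage markers (3084 and 2207 FPKM) and of B cell markers (949 and 1161 FPKM), and the lowest sums of CD4+ T cell markers (2226 and 2249 FPKM). Hmox1, a macrophage enzyme of heme breakdown, was at 988 FPKM in AngII replicate 2 and between 304 and 593 FPKM in the other 5 libraries. The part of other cells in the values of Jak1, Stat5b, Socs1, Cish and Jak3 was not tested. Jak3 ran opposite to Cish, with a correlation of -0.958 over the 6 libraries, again as a description.

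Another 9 JAK, STAT and SOCS genes are described here, of which 0 passed limma, with 0 at an unadjusted p below 0.05. Stat6, the factor of IL-4, was at 81.7 ± 12.3 FPKM in AngII and 81.2 ± 4.13 FPKM in Control (SD, n = 3 each). Stat4, the factor of IL-12, was at 45.0 ± 5.05 FPKM in AngII and 45.3 ± 1.71 FPKM in Control, and Stat2, a factor of type I interferon signalling, at 8.95 ± 1.09 FPKM in AngII and 9.19 ± 0.734 FPKM in Control. Jak2, the kinase of the growth hormone and interferon gamma receptors, was at 41.9 ± 0.520 FPKM in AngII and 41.7 ± 2.13 FPKM in Control. The remaining SOCS genes, Socs2, Socs4, Socs5, Socs6 and Socs7, lay between 5.55 and 10.9 FPKM in all libraries, with log2 fold changes from -0.12 (Socs2) to 0.06 (Socs4).

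Cytokine genes were mostly low in these cells, and none passed. Of 20 cytokines that act through JAK kinases, 8 reached the mean of 1 FPKM needed for testing, and Il3, Il9 and Ifnb1 were listed at 0 in all libraries. Ifng, the cytokine of Th1 cells, was at 13.5, 28.3 and 16.8 FPKM in AngII, against 24.7, 29.8 and 28.5 FPKM in Control (log2 fold change -0.54, limma unadjusted p = 0.0814). Il10, an anti-inflammatory cytokine that acts through STAT3, was at 3.44 ± 1.52 FPKM in AngII and 5.18 ± 1.64 FPKM in Control (SD, n = 3 each; log2 fold change -0.50). Markers of CD8 T and NK cells, which also make interferon gamma, summed to 197, 184 and 236 FPKM in AngII, against 195, 255 and 277 FPKM in Control, with 9 of 9 tested lower in AngII; their part in the value of Ifng was not tested. Il15, which shares receptor chains with IL-2, had a log2 fold change of 0.13.

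Of 25 receptor chains, 22 were tested and 0 passed limma, with 0 at an unadjusted p below 0.05. The common gamma chain gene Il2rg was at 391.5 ± 38.0 FPKM in AngII and 422.2 ± 23.0 FPKM in Control, and Il27ra, the IL-27 receptor chain, at 55.7 ± 1.40 FPKM in AngII and 61.0 ± 3.905 FPKM in Control (SD, n = 3 each). Il6st, which encodes gp130, was at 33.0 ± 5.002 FPKM in AngII and 29.4 ± 3.45 FPKM in Control (SD, n = 3 each). Of these 22 genes, 14 had higher values in AngII, with a median log2 fold change of 0.04. Only 9 were higher without AngII replicate 3 (median -0.005) and likewise without Control replicate 1 (median -0.04). Il7r, the IL-7 receptor chain, chosen after its values were seen, was at 109.2 FPKM in AngII replicate 2, below the 5 other libraries, as Socs1 and Cish were. The 19 other regulators (phosphatases, PIAS proteins, adaptors and ubiquitin ligase parts) had a median log2 fold change of 0.03 and 0 past the threshold, with 0 at an unadjusted p below 0.05. Of these 19, 13 had higher and 6 lower values in AngII. For 1 of the 19, every AngII library lay above every Control library, as for 279 of all 11842 genes tested. The median was -0.02 without AngII replicate 3 (9 of the 19 higher) and likewise without Control replicate 3 (7 higher). Their smallest p belonged to Usp18, a brake on the interferon receptor, at 9.21 ± 0.754 FPKM in AngII and 10.5 ± 1.18 FPKM in Control, to Elob, a subunit that joins SOCS boxes to ubiquitin ligases, with a log2 fold change of -0.11, and to Stam, an adaptor, with -0.08.

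**Figure D4:**
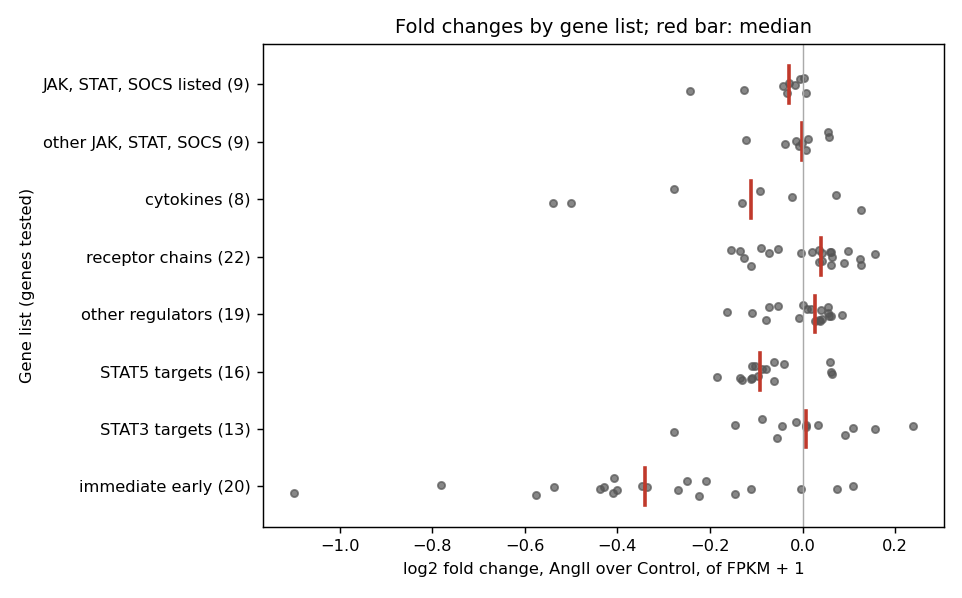
Limma log2 fold change of AngII over Control on the scale of FPKM + 1 for each tested gene of 8 lists (points, spread vertically for sight), with the list median as a red bar. The STAT5 target median lies at -0.09 and the immediate early median at -0.34, against -0.004 over all genes.

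Genes known to be induced through STAT5 and STAT3 held no gene past the threshold in limma. Of 16 STAT5 targets, 13 had lower values in AngII (10 when scaled to the CD4+ T cell markers or to equal sums, and 9 without AngII replicate 2), with a median log2 fold change of -0.09 (-0.05 without AngII replicate 2 or without Control replicate 3) and 1 gene at an unadjusted p below 0.05. That gene was Cd69, an early activation marker, at 111.9, 113.1 and 123.9 FPKM in AngII, against 133.8, 138.5 and 124.6 FPKM in Control. Its groups did not overlap, with AngII replicate 3 and Control replicate 3 close together (log2 fold change -0.18, limma unadjusted p = 0.0375). Of all 11842 genes tested, 6152 were lower in AngII, and 1.14% were lower at a limma unadjusted p below 0.05. Every AngII library lay below every Control library for 3.48% of them. Lta, which encodes lymphotoxin, had a log2 fold change of -0.13, and Xbp1, a factor of the secretory pathway, -0.10. Of 13 STAT3 targets tested, 7 had higher and 6 lower values, with a median of 0.01 and 0 at an unadjusted p below 0.05. Single libraries turned that split, to 4 higher and 9 lower without Control replicate 2 (median -0.09), and to 9 higher and 4 lower without Control replicate 3 (median 0.11). The median was below 0 without AngII replicate 2 (-0.02) and without Control replicate 1 (-0.006) too. Cebpb, a factor of the acute phase response that myeloid cells also express, was at 38.6 ± 4.78 FPKM in AngII and 32.9 ± 7.09 FPKM in Control, and Rora, a Th17 factor, at 6.47 ± 0.0722 FPKM in AngII and 6.03 ± 0.631 FPKM in Control (SD, n = 3 each).

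These lists were chosen with earlier results of the same data known. Of the 20 immediate early genes, 18 had lower values and 0 passed, with 0 at an unadjusted p below 0.05. Their median log2 fold change of -0.34 was -0.21 without AngII replicate 1. Egr1 was at 41.8, 45.9 and 49.8 FPKM in AngII, against 69.0, 66.4 and 43.4 FPKM in Control. Ier2 and Btg2 had log2 fold changes of -0.22 and -0.11.

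The genes whose levels followed the inhibitors most closely were sought by the Pearson correlation of log2(FPKM + 1) over the 6 libraries. Each inhibitor was compared with 7948 genes whose mean reached 5 FPKM, leaving out predicted genes, clone names, pseudogenes and antigen receptor segments. For Socs3 they were Emd, which encodes the nuclear envelope protein emerin (0.975), Tmem208 (0.974) and Tmem230 (0.962). Emd was at 47.8, 50.9 and 49.4 FPKM in AngII, against 56.2, 54.0 and 54.5 FPKM in Control. Emd was chosen for its likeness to Socs3 in these same libraries, so its groups not overlapping is no separate result. For Socs1 they were Slc37a3, Zfp644 and Mcu, with a correlation of at least 0.994, and for Cish they were Zscan21, Armc1 and Cbx1, with at least 0.993. A correlation above 0.9 was reached by 25 of the 7948 genes for Socs3, 177 for Cish and 463 for Socs1. How many would reach 0.9 by chance over 6 libraries was not computed, so these counts are a description only. Zfp644 was at 7.12 FPKM in AngII replicate 2 and between 9.55 and 12.0 FPKM in the other libraries. Zfp644 was chosen for its likeness to Socs1, which was lowest in AngII replicate 2, so this match is no separate result. The same holds for the genes most like Cish, which was also lowest in AngII replicate 2.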

How the data were processed

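RNA of splenic CD4+ T cells from 6 mice was sequenced, and libraries were grouped by sample title. The authors deposited FPKM per library and a table of their own comparison, from which the authors' p-values and q-values were copied; its conditions are only numbered, so no direction was taken from it. Trimmomatic 0.32, TopHat2 2.1.1, Cuffdiff and build GRCm38.p3 are named in the submitters' processing notes, without settings. FPKM holds no counts, so the depth behind a value is unknown, and a listed 0 can be a failed estimate.

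GENCODE M21 named 37605 of 39171 identifiers, and 218 of 219 listed genes were matched. Values were tested with limma 3.58.1 in R 4.3.3 (eBayes with trend), after a test on simulated data, and ratios by an exact permutation test in scipy 1.17.1. No libraries were duplicates: at least 98.3% of genes differed between any pair. Members and lists were chosen with earlier results of these data known. The text names the JAK, STAT and SOCS genes, the 3 genes of smallest p in each pathway list, the 3 genes most like each inhibitor, Cd4 and Cd3e, and the highest marker of each other cell type; some results under this rule are not reported here.

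Alternatives changed the pseudocount, the filter, the scaling, the variance model, the library weights and the threshold, added a replicate block, or dropped single libraries. Scaling to CD4+ T cell markers, and dropping AngII replicate 2 with Control replicate 3, were added after seeing the data.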

Additional observations from a re-analysis of the deposited data

How the results depend on the processing

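The count of the 9 genes past the limma threshold, and that of the pathway lists, was 0 under every alternative run. Over all genes, 4 passed, 7 with no filter, 3 with the replicate block, and 4 to 9 with 1 library left out (9 without AngII replicate 3, 8 without Control replicate 1, 7 without Control replicate 3). Replicate numbers are not shown to pair the mice, since deviations of same-numbered libraries correlated at -0.0802, -0.0229 and -0.0352; the block changed no call of the 9 genes. The log2 fold change of Socs3 lay between -0.27 and -0.17 over all alternatives and that of Stat5a between -0.19 and -0.057. Other log2 fold changes, near 0, changed sign in places. Equal sums of FPKM and scaling to CD4+ T cell markers moved the median of all genes from -0.004 to 0.058 and 0.060. For the other alternatives the cause was not tested. With equal sums of FPKM the genes that changed sign were Stat3 (0.034), Jak1 (0.040), Tyk2 (0.023), Socs1 (0.051) and Cish (0.058). Scaled to CD4+ T cell markers, they were Stat3 (0.037), Jak1 (0.043), Tyk2 (0.026), Socs1 (0.053) and Cish (0.061). With quantile normalization they were Jak1 (0.050) and Socs1 (0.013), and with library weights Stat3 (0.016), Jak3 (-0.052), Socs1 (0.30) and Cish (0.10). Without AngII replicate 2 and Control replicate 3 together they were Jak3 (-0.16), Socs1 (0.36) and Cish (0.18). With 1 library left out, Stat3 ranged from -0.071 to 0.041, Stat5b from -0.088 to 0.095, Jak1 from -0.14 to 0.043, Jak3 from -0.11 to 0.10, Tyk2 from -0.07 to -0.03, Socs1 from -0.17 to 0.29 and Cish from -0.091 to 0.13. The log2 difference of ratios ranged from -0.12 to 0.018 for Stat3 to Stat5b, -0.13 to 0.14 for Jak1 to Jak3, -0.10 to 0.082 for Jak1 to Tyk2 and -0.13 to 0.13 for Cish to Stat5b. The 95% interval of the median gene reaches 0.263 in log2 to either side of its estimate, and depth could not be read from FPKM.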

Other observations

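Markers of other spleen cells did not pass limma in any list, with 0 genes past the threshold and 0 at an unadjusted p below 0.05. By the sign of the limma log2 fold change, 5690 of all 11842 genes tested were higher in AngII and 6152 lower. Of 12 macrophage and monocyte markers, 10 had higher values in AngII by that sign, as in the counts that follow. Hmox1 was at 624.7 ± 315 FPKM in AngII and 467.8 ± 148 FPKM in Control (SD, n = 3 each). The 12 markers summed to 1589, 3084 and 1554 FPKM in AngII, against 1257, 1735 and 2207 FPKM in Control, so AngII replicate 2 alone exceeded every Control library. Of 8 granulocyte markers tested, 7 had higher values, and S100a8, an alarmin of neutrophils, was at 17.1 ± 10.1 FPKM in AngII and 4.71 ± 4.63 FPKM in Control (SD, n = 3 each). All 8 platelet markers had higher values, and the chemokine gene Ppbp was at 88.1 ± 15.8 FPKM in AngII and 64.7 ± 40.45 FPKM in Control (SD, n = 3 each). The platelet markers summed to 265, 197 and 238 FPKM in AngII, against 117, 131 and 307 FPKM in Control. Control replicate 3 thus had the highest platelet sum of all libraries. All 9 B cell markers had lower values, with a smallest limma unadjusted p of 0.467. Ighm was at 720.5 ± 180 FPKM in AngII and 784 ± 226 FPKM in Control (SD, n = 3 each). The B cell markers summed to 587, 949 and 818 FPKM in AngII, against 658, 743 and 1161 FPKM in Control. Control replicate 3 was the highest, and the other Control libraries lay below AngII replicates 2 and 3. Nkg7, of cytotoxic granules, was at 70.0 ± 6.00 FPKM in AngII and 86.2 ± 17.8 FPKM in Control (SD, n = 3 each). Of the dendritic cell markers, 6 of 6 tested had lower values, and Bst2 was at 51.9 ± 2.35 FPKM in AngII and 55.5 ± 6.12 FPKM in Control (SD, n = 3 each). All 9 dendritic cell markers summed to 69.5, 68.0 and 76.0 FPKM in AngII, against 65.5, 83.7 and 87.7 FPKM in Control. The lowest of these sums was that of Control replicate 1. The erythroid markers split into 4 higher and 4 lower, and Hbb-bs was at 226.7 ± 144 FPKM in AngII and 245.5 ± 72.7 FPKM in Control (SD, n = 3 each). Cd3e, the T cell receptor chain gene, was at 479.3 ± 39.7 FPKM in AngII and 505.2 ± 35.6 FPKM in Control (SD, n = 3 each).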
